A study of Homo sapiens with 6 samples.

Results

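The genes of glycolysis, the pentose phosphate pathway and lactate transport were followed after loss of Matrin3, a nuclear RNA-binding protein, in the colorectal cancer cell line HCT116, an established human line. They were taken by symbol from a list of sugar and lactate transporters, glycolytic and pentose phosphate enzymes, and the kinases and catalytic subunit of pyruvate dehydrogenase. All 34 listed genes were found among the 58884 gene IDs of the tables. The siMatrin3 cells received a pool of siRNAs against Matrin3 and the siCTRL cells a negative control siRNA, and RNA was taken 48 h after transfection from 3 cultures of each group. No other treatment or genetic change was given to either group, and the results hold for 1 cell line and 1 siRNA pool.

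Glycolysis breaks glucose down to pyruvate in the cytosol. Many of its steps can be carried out by several isozymes, proteins encoded by separate genes that catalyse the same reaction with different regulation, and tumour cells are known for high glucose uptake with release of lactate. The pentose phosphate pathway branches off after the first phosphorylation of glucose and yields NADPH and ribose for nucleotides. Its non-oxidative arm returns carbon to glycolysis. Pyruvate dehydrogenase passes pyruvate on to the mitochondrial citric acid cycle, and its kinases switch it off.

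The libraries held 6007630 to 7414040 estimated counts in siMatrin3 and 4556658 to 8400412 in siCTRL. MATR3 itself was at 72.4, 67.9 and 71.4 CPM (counts scaled to a fixed library total) in siMatrin3, against 363, 343 and 330.2 in siCTRL, which leaves 20.5% by edgeR. All 5 epithelial markers of the line (EPCAM, KRT8, KRT18, KRT19 and CDH1) could be tested, with a summed level of 1149 to 1163 TPM (a level per length, scaled within a library) in siMatrin3 and 1068 to 1141 TPM in siCTRL, and 2 of them, EPCAM and KRT19, were called higher and KRT8 also when the replicate number was fitted as a block (adjusted p = 0.0592 without it and 0.00789 with it, by edgeR). Of the markers of skeletal muscle and liver, where other glycolytic isozymes prevail, none was high enough to test, with summed levels under 1 TPM in every library. Blood, fibroblast and neural markers gave 1, 1 and 2 tested genes, of which 0 passed edgeR's threshold, 0 had an unadjusted p under 0.05 and 0 were called by DESeq2. RNA from bulk cultures cannot tell fewer cells with a transcript from less transcript per cell.

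HK2, PFKL, PFKM, RPE and SLC16A3 were higher and PGAM1 and PFKP lower in siMatrin3, by edgeR's quasi-likelihood test with an adjusted p under 0.05 over all genes. These were 5 higher (15.2%) and 2 lower (6.06%) of 33 members tested, beside 5.68% higher and 5.18% lower among all 14334 genes tested. PGAM1 had the largest difference of any member tested, followed by HK2 and RPE, while the other 4 called members lay between 0.26 and 0.31 in size on the log2 scale. Of the tested members 24 had a positive and 9 a negative log2 fold change, with a median of 0.11, against a median of -0.0006 over all genes tested. Members are abundant transcripts, and abundance moved with the share of calls. At or above the members' median level of 106 CPM, 2 of 17 members were higher (11.8%) and 2 lower (11.8%), beside 16.9% higher and 6.50% lower of the 1647 genes at these levels, a comparison added after the values were seen. The log2 fold change was positive for 14 of these 17 members (82.4%) and for 63.9% of the 1647 genes, with medians of 0.05 in both. Below that level 3 of 16 members were called, HK2, PFKL and RPE, all higher (18.8%), beside 4.22% higher and 5.01% lower of 12687 genes. These genes reach down to the filter on low counts, whereas HK2, PFKL and RPE averaged 65.3, 92.1 and 45.1 CPM in siCTRL. The shares below that level are therefore not matched by level. The member left out by the filter on low counts was SLC2A3, a neuronal-type glucose transporter, at 0.82, 0.87 and 0.78 CPM in siMatrin3 and 1.94, 1.29 and 1.23 CPM in siCTRL, and it did not pass in any of the 3 alternatives that could test it (adjusted p = 0.145 or more).

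**Figure D1:**
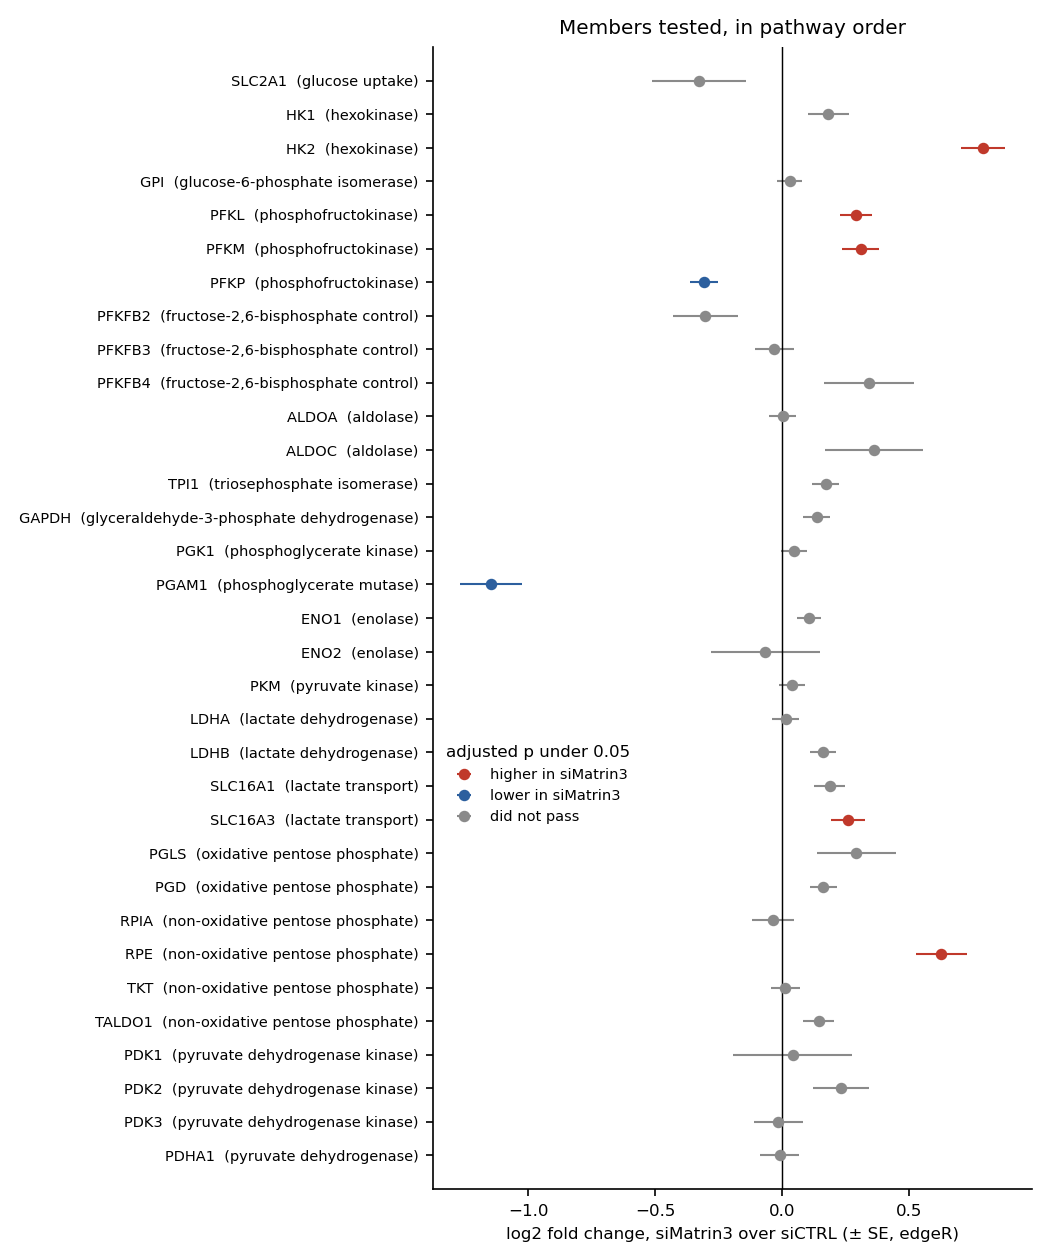
Log2 fold change of siMatrin3 over siCTRL (x axis, edgeR, bars ± SE) for the 33 members tested, from glucose uptake at the top to pyruvate dehydrogenase at the bottom. HK2 (0.79) and RPE (0.63) lie farthest to the right and PGAM1 (-1.14) farthest to the left, and 26 members in grey did not pass.

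Same-numbered libraries of the groups shared weak deviations, and a fit with the replicate number as a block called more members. The labels do not state that the numbers pair the cultures. With the block 11 members were higher (33.3%) and 2 lower (6.06%), beside 8.39% and 7.37% of all genes. The members gained were TPI1, GAPDH, LDHB, SLC16A1, PGD and ALDOC, all higher. Without any model, the 3 siMatrin3 libraries lay above all 3 siCTRL libraries in CPM for 13 members (39.4%) and below them for 3 (9.09%), beside 15% and 14.7% of all genes tested. The shares of all genes in this paragraph were not matched by level. Members are abundant, so the gap to all genes cannot be read as a trait of the members.

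PGAM1 encodes the phosphoglycerate mutase that converts 3-phosphoglycerate to 2-phosphoglycerate, the step between PGK1 and the enolases. It is annotated on chromosome 10, 97426191 to 97433444 on hg38, plus strand. PGAM1 stood at 244, 204 and 147 CPM in siMatrin3, against 440.4, 444 and 433 CPM in siCTRL. Every siMatrin3 library was below every siCTRL library, and the siMatrin3 libraries also lay farther apart (198 ± 48.7 against 439 ± 5.81 CPM, SD, n = 3 each). The fold change was -1.14 ± 0.12 on the log2 scale (SE), which leaves 45.3% of the siCTRL level (edgeR adjusted p = 0.000106). PGAM1 passed in all 17 alternatives run, with log2 fold changes between -1.33 and -0.97.

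Processed pseudogenes of PGAM1 and the intronless PGAM4 carry long stretches of the same sequence. Of the 1753 windows of 50 bases, the read length of the study, in the canonical PGAM1 transcript, 995 (56.8%) also occur in a transcript of at least 1 of 11 other genes of GENCODE 44, which leaves 43.2% that mark PGAM1 alone. The first 50 bases of the PGAM1 coding sequence show how close the copies are. They are set beside the same stretch of 4 copies that had counts in these libraries, with bases that differ from PGAM1 in capitals. The sequences come from the GENCODE 44 transcripts.
PGAM1: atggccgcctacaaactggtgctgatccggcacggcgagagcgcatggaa
ENSG00000186076: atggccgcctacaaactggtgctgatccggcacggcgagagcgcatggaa
PGAM4: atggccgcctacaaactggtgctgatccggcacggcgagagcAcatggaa
PGAM1P4: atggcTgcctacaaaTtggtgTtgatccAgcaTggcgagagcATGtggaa
PGAM1P6: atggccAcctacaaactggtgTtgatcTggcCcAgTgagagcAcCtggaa

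The pseudogene ENSG00000186076 on chromosome 12, which has no symbol, is identical to PGAM1 here, so that a read of this stretch cannot be placed by its bases. PGAM4 on chromosome X differs by the single substitution G43A, counted from 1 at the start codon, and PGAM1P4 on chromosome 3 and PGAM1P6 on chromosome 2 by 8 each. PGAM1P7 on chromosome X and PGAM1P8 and PGAM1P11 on chromosomes 11 and 1 had no counterpart of this stretch within 10 mismatches.

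Few reads were assigned to these copies. ENSG00000186076 was given 10.6, 0 and 9.46 estimated counts in siMatrin3 and 0, 56.6 and 0 in siCTRL, and the 56.6 counts of siCTRL replicate 2 were the most that any copy had in 1 library. PGAM1P1 to PGAM1P13 and PGAM4, together with the separate isozyme gene PGAM2, are 15 genes. They held 110.86 counts over all libraries, beside 12174 for PGAM1. PGAM1P7 led with 31 counts, before PGAM1P4 with 23.1, PGAM1P8 with 22.9, PGAM1P11 with 13, PGAM1P6 with 11.03, PGAM4 with 7.69, PGAM1P5 with 2.02 and PGAM2 with 0.04, and the other 7 were at 0. Of the counts of PGAM1 and these 15 genes together, the 15 held 1.25% in siMatrin3 and 0.737% in siCTRL. In a single library their share lay between 0.674% and 2.05%. ENSG00000186076 is not among them. With it, the 7 pseudogenes that share a window held 1.26% of the counts of PGAM1 and themselves in siMatrin3 and 1.03% in siCTRL. With the counts of all 7 pseudogenes that share a window added to PGAM1, the log2 ratio of group mean CPM was -1.14, against -1.15 for PGAM1 alone. The protein-coding gene ATP7A on chromosome X, which is not a copy and was not added, shares 313 of the windows. ATP7A had 121.5, 90 and 106.1 counts in siMatrin3 and 101, 175 and 117 in siCTRL, more than the copies. It did not pass (log2 fold change -0.36, edgeR adjusted p = 0.0519). The effective length of PGAM1, the length RSEM divides by, was 1730, 1713 and 1716 bases in siMatrin3 and 1737, 1733 and 1735 in siCTRL, a gap of 15.6 bases.

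**Figure D2:**
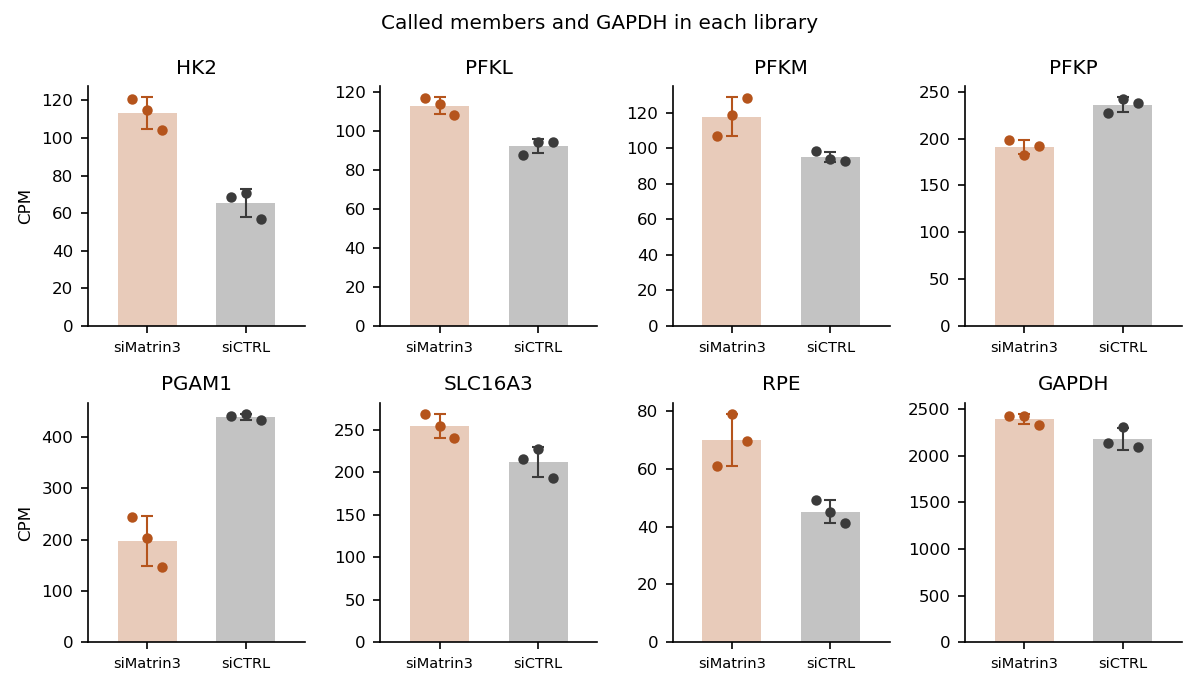
CPM (y axes, each from 0) of the 7 called members and GAPDH in siMatrin3 and siCTRL, with bars for means, error bars for SD and points for the 3 libraries of each group. PGAM1 is at 147 to 244 CPM in siMatrin3 and 433 to 444 in siCTRL, and in none of the 8 panels do the points of the groups overlap.

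Hexokinases trap glucose in the cell by phosphorylation. HK2, the inducible isozyme that is prominent in muscle and many tumours, was at 121, 115 and 104 CPM in siMatrin3, against 68.4, 70.6 and 56.7 CPM in siCTRL. The lowest siMatrin3 library was well above the highest siCTRL library. HK2 was 1.73-fold higher (log2 fold change 0.79 ± 0.09, SE, edgeR adjusted p = 0.00013). HK1, the broadly expressed isozyme, was at 68.0, 65.3 and 64.7 CPM in siMatrin3 and 54.8, 64.8 and 53.5 CPM in siCTRL. HK1 groups overlapped, and its log2 fold change of 0.18 ± 0.08 did not pass (edgeR adjusted p = 0.185). HK2 therefore took 53.0%, 51.8% and 50.1% of the step's TPM in siMatrin3, against 43.7%, 41.0% and 44.7% in siCTRL, a shift of 8.47 percentage points. In TPM HK2 itself was at 20.9, 18.9 and 17.2 in siMatrin3 and 12.4, 12.8 and 12.8 in siCTRL. In TPM the share of HK2 was above that of HK1 in every siMatrin3 library and below it in every siCTRL library. In expected counts, which are not per length, HK2 led in all 6, at 61.6% to 64.0% in siMatrin3 and 51.4% to 55.5% in siCTRL. The exact permutation p of the shift was 0.1, which 3 libraries against 3 cannot undercut. HK2 passed in 16 of 17 alternatives. The exception was limma on log2(TPM + 1), with an adjusted p of 0.0656.

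HK2 (chromosome 2, 74834127 to 74893359 on hg38, plus strand) is a textbook target of both hypoxia-inducible factor and MYC, and its promoter windows are shown as those of the member with the largest rise. RefSeq gives 2 windows on GRCh38.p14, each from 250 bases before to 50 bases after a start, the upstream one at chr2:74833877-74834176 and the downstream one at chr2:74834920-74835219, plus strand. Capitals mark the hypoxia response core (ACGTG or GCGTG, both strands) and the E-box (CACGTG, which holds ACGTG on both strands).
HK2 upstream window: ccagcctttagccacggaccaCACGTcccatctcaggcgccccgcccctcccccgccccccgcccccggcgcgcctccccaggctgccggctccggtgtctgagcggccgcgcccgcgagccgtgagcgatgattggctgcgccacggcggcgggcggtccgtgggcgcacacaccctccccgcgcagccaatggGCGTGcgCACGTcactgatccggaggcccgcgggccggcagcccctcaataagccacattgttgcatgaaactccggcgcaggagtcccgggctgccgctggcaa
HK2 downstream window: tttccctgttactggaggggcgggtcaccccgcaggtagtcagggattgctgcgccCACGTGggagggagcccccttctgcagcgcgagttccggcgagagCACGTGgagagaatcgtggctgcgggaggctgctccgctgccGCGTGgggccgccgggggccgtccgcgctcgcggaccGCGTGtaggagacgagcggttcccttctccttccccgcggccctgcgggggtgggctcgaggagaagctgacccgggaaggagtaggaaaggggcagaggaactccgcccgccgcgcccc

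The upstream window holds 3 core matches and 0 E-boxes, and the downstream window 6 core matches and 2 E-boxes, each of which counts as a core match on both strands. Across the RefSeq windows the core was found in at least 1 window of 26 of 31 member genes (83.9%), against 52.4% of all 27305 genes with a window, and the E-box in 7 of 31 (22.6%), against 8.77%. Per window these shares were 61.0% of 59 member windows against 48.4% of all 35116 for the core, and 11.9% against 7.26% for the E-box. SLC2A3, PFKFB2 and SLC16A1 had no window. Of the called members, HK2, PFKL, PFKM and SLC16A3, all higher, and PFKP, which was lower, had the core in at least 1 window, and RPE, which was higher, and PGAM1, which was lower, did not. A match describes the letters only.

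Phosphofructokinase commits fructose-6-phosphate to glycolysis, and its 3 isozymes moved in opposite directions. PFKP, the platelet-type isozyme and the most abundant one here, was at 198, 183 and 192 CPM in siMatrin3, against 227, 243 and 238 CPM in siCTRL, without overlap. Its log2 fold change was -0.31 ± 0.05 (SE, edgeR adjusted p = 0.0034). PFKL, the liver type, was at 117, 114 and 108 CPM in siMatrin3 and 87.8, 94.2 and 94.2 CPM in siCTRL. The groups did not overlap, and PFKL rose by 22.3% (log2 fold change 0.29 ± 0.06, edgeR adjusted p = 0.0106). PFKM, the muscle type, was at 107, 119 and 128 CPM in siMatrin3 and 98.4, 94.0 and 92.8 CPM in siCTRL. It rose by 23.9% (log2 fold change 0.31 ± 0.07, edgeR adjusted p = 0.0162).

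These differences offset each other in the counts of the step, which summed to 421, 415 and 428 CPM in siMatrin3 and 414, 431 and 425 CPM in siCTRL. Per length, PFKP made up 49.7%, 47.0% and 48.4% of the step's TPM in siMatrin3, against 57.8%, 57.7% and 59.4% in siCTRL, so that its mean share fell by 9.99 percentage points. PFKL took 23.7% in siMatrin3 and 18.2% in siCTRL, and PFKM 28.0% in siMatrin3 and 23.5% in siCTRL (means, n = 3 each). For all 3 isozymes the shares did not overlap between the groups (exact permutation p = 0.1 each, the smallest possible). Shares of a step add up to the whole in each library, so these separations are not independent. A larger share of PFKM also does not mean more PFKM, whose own TPM overlapped between the groups. PFKP stayed the leading isozyme in every library.

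**Figure D3:**
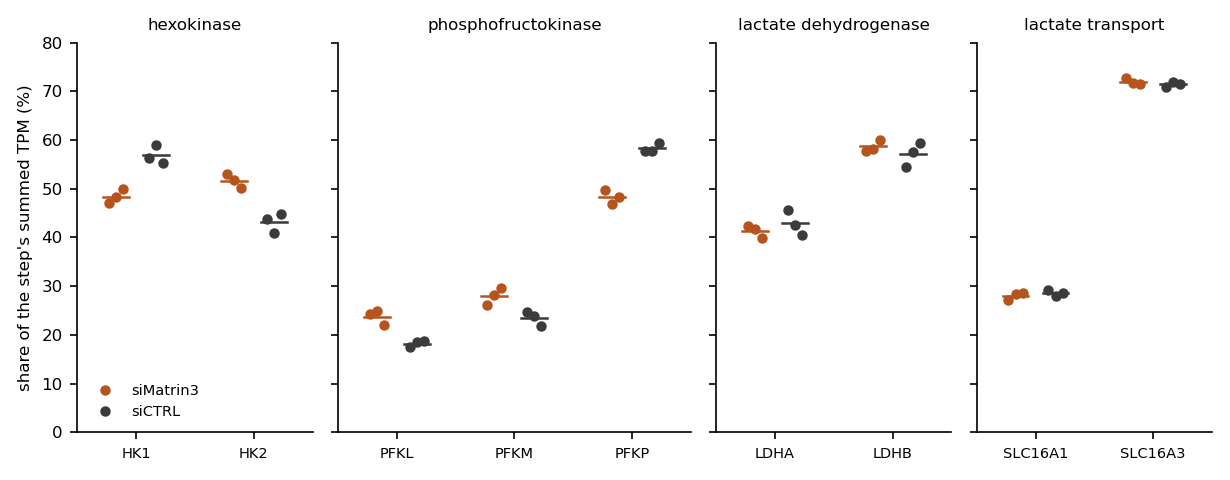
Share of each isozyme in the summed TPM of its step (y axis, %), with points for single libraries and lines for means, siMatrin3 left of siCTRL. The groups separate for HK1 and HK2 and for PFKL, PFKM and PFKP, and overlap for lactate dehydrogenase and the lactate transporters.

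PFKM also differed in its effective length, which was 2437, 2628 and 2471 bases in siMatrin3, against 2344, 2249 and 2403 in siCTRL. PFKM was the only member whose siMatrin3 libraries all had a longer one. In TPM, which divides by it, PFKM was at 42.4, 42.7 and 48.3 in siMatrin3 and 43.2, 42.2 and 40.4 in siCTRL, and the groups overlapped. With effective lengths as an offset in edgeR, PFKM had a log2 fold change of 0.19 (adjusted p = 0.34), and its call was also lost without siCTRL replicate 2 (adjusted p = 0.0596), siCTRL replicate 3 (0.0768) or siMatrin3 replicate 3 (0.0816). PFKM overlaps SENP1 on the opposite strand, which edgeR did not call (-0.12 on the log2 scale, edgeR adjusted p = 0.533). Among other members the effective length of GPI was shorter in siMatrin3 (1973 against 2046 bases), as was that of PGAM1, and 31 of 34 overlapped between the groups. For PFKM, GPI and PGAM1 the exact permutation p was 0.1, the smallest possible. Such gaps were not counted over all genes, so these members have no background share beside them.

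The bifunctional enzymes that set fructose-2,6-bisphosphate, the activator of phosphofructokinase, did not pass. PFKFB2 was lower in every siMatrin3 library in CPM, at 16.2, 15.2 and 14.8 CPM, against 19.9, 16.8 and 21.0 CPM in siCTRL (edgeR adjusted p = 0.154). In TPM it was at 3.66, 5.16 and 5.53 in siMatrin3 and 5.82, 3.53 and 5.03 in siCTRL, with overlap. PFKFB2 overlaps YOD1 on the opposite strand, which was called lower. PFKFB3 and PFKFB4 had log2 fold changes of -0.03 and 0.34 (adjusted p = 0.85 and 0.256 by edgeR).

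The glucose transporter SLC2A1 (GLUT1) varied widely between libraries of a group, at 79.3, 123 and 104 CPM in siMatrin3 and 84.6, 131 and 165 CPM in siCTRL. Its log2 fold change of -0.33 ± 0.19 did not pass (edgeR adjusted p = 0.299), although every siMatrin3 library was below the siCTRL library of the same number. It passed only with no filter on low counts (adjusted p = 0.000705). GPI, which isomerises glucose-6-phosphate, and ALDOA, the main aldolase, had log2 fold changes of 0.03 and 0.00.

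The remaining glycolytic steps lie below the split of fructose-1,6-bisphosphate into triose phosphates, and several were slightly higher in CPM. TPI1, which interconverts the triose phosphates, was at 589.9, 575 and 534 CPM in siMatrin3 and 511, 517 and 481 CPM in siCTRL. Its log2 fold change was 0.17 ± 0.05 (edgeR adjusted p = 0.0618, 0.0119 with the replicate block). GAPDH, which oxidises glyceraldehyde-3-phosphate and served the study as the reference of its RT-qPCR, was at 2420, 2430 and 2334 CPM in siMatrin3, against 2137, 2307 and 2091 CPM in siCTRL. The groups did not overlap, and the difference of 0.14 ± 0.05 on the log2 scale did not pass (edgeR adjusted p = 0.127) but passed with the block (0.0283) and, narrowly, without siCTRL replicate 2 (0.04998). In TPM GAPDH was at 2134, 2106 and 1978 in siMatrin3 and 2004, 2124 and 1998 in siCTRL, with overlap.

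PGK1, ENO1, ENO2 and PKM, the other enzymes of the lower part of glycolysis, had log2 fold changes of 0.05, 0.11, -0.07 and 0.04, with edgeR adjusted p of 0.181 or more. ENO1 lay between 1578 and 1616 CPM in siMatrin3 and between 1452 and 1514 CPM in siCTRL, without overlap. PGAM1 thus stood between a kinase and an enolase of which neither was called. The brain-type aldolase ALDOC, at 15.9, 20.5 and 12.9 CPM in siMatrin3 and 10.8, 15.8 and 10.7 CPM in siCTRL, passed only with the block (adjusted p = 0.271 without it and 0.0497 with it, by edgeR).

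Lactate dehydrogenase interconverts pyruvate and lactate. LDHA, the form associated with lactate production, had a log2 fold change of 0.01 ± 0.05 (edgeR adjusted p = 0.91). LDHB, the form that favours lactate oxidation, was at 659, 705 and 706 CPM in siMatrin3 and 599, 637 and 617 CPM in siCTRL. It missed the threshold (log2 fold change 0.16 ± 0.05, edgeR adjusted p = 0.063) and passed with the block (0.0145). The share of LDHA in the TPM of both was 41.3% ± 1.21 in siMatrin3 and 42.9% ± 2.50 in siCTRL (SD, n = 3 each) and overlapped between the groups. From expected counts it was 47.9% in siMatrin3 and 50.45% in siCTRL, a gap of -2.50 points without overlap (exact permutation p = 0.1, the smallest possible).

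Lactate leaves the cell with a proton through the monocarboxylate transporters. SLC16A3 (MCT4), the exporter of highly glycolytic cells, was at 269, 254 and 239.9 CPM in siMatrin3, against 216, 227 and 193 CPM in siCTRL. All siMatrin3 libraries were higher, by 0.26 ± 0.07 on the log2 scale (edgeR adjusted p = 0.025). The call was lost without siCTRL replicate 1 (adjusted p = 0.0608), siCTRL replicate 3 (0.122), siMatrin3 replicate 1 (0.104) or siMatrin3 replicate 2 (0.0559). SLC16A3 shares 15.3% of its 50-base windows with CSNK1D, which overlaps it on the opposite strand and did not pass (adjusted p = 0.903 at a log2 fold change of 0.02). SLC16A1 (MCT1), which carries lactate in both directions, was at 175, 179.7 and 165 CPM in siMatrin3 and 159, 154 and 143 CPM in siCTRL (log2 fold change 0.19 ± 0.06, edgeR adjusted p = 0.0648 and 0.0212 with the block). The share of SLC16A3 in the TPM of both transporters was 72.0% in siMatrin3 and 71.4% in siCTRL, so the balance between them was nearly equal in the groups.

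In the pentose phosphate pathway RPE stood apart from its neighbours. RPE, which epimerises ribulose-5-phosphate to xylulose-5-phosphate, is annotated on chromosome 2, 210002565 to 210022260 on hg38, plus strand. It was at 60.9, 78.9 and 69.6 CPM in siMatrin3, against 49.2, 45.02 and 41.2 CPM in siCTRL, with no overlap and a 1.54-fold difference (log2 fold change 0.63 ± 0.10, SE, edgeR adjusted p = 0.00148). In TPM RPE was at 35.6, 41.2 and 35.1 in siMatrin3 and 31.7, 26.0 and 27.9 in siCTRL, again without overlap. RPE passed in 15 of 17 alternatives, and missed with effective lengths as an offset (adjusted p = 0.0601) and with limma on log2(TPM + 1) (0.13). Of its 50-base windows 37.9% occur in another gene, 791 of them in KANSL1L on the opposite strand and 397 in the retrocopy RPEL1 on chromosome 10. KANSL1L did not pass the same test (adjusted p = 0.819 at 0.06 on the log2 scale), and RPEL1 had 7.69 counts over all libraries.

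RPIA, the isomerase that makes ribose-5-phosphate from the same substrate, was at 49.5, 42.3 and 48.8 CPM in siMatrin3 and 46.4, 48.9 and 48.96 CPM in siCTRL, with overlap (edgeR adjusted p = 0.837). TKT, the transketolase, was at 501, 485 and 512 CPM in siMatrin3 and 457, 514 and 513 CPM in siCTRL and did not pass either (adjusted p = 0.927). TALDO1, the transaldolase, was at 99.6, 95.2 and 102 CPM in siMatrin3, against 87.4, 91.9 and 88.9 CPM in siCTRL. TALDO1 groups did not overlap, but its log2 fold change of 0.14 ± 0.06 did not pass (adjusted p = 0.162). In the oxidative arm PGD, which makes NADPH from 6-phosphogluconate, was at 181, 191 and 187 CPM in siMatrin3 and 161, 168 and 170.3 CPM in siCTRL. It passed only with the block or with DESeq2 (edgeR adjusted p = 0.072, 0.0346 with the block). PGLS, the lactonase before it, had a log2 fold change of 0.29 ± 0.16 (adjusted p = 0.27).

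At the entry to the mitochondrion no member passed. PDHA1, the catalytic subunit of pyruvate dehydrogenase, had a log2 fold change of -0.01, and its kinases PDK1, PDK2 and PDK3 had 0.04, 0.23 and -0.02, with edgeR adjusted p of 0.212 or more. PDK2 was higher in every siMatrin3 library (23.7 to 24.4 CPM) than in siCTRL (18.7 to 22.7 CPM). PDK1 varied within both groups, from 11.7 to 25.7 CPM in siMatrin3 and from 14.8 to 24.6 CPM in siCTRL.

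Summed over isozymes, the steps of the pathway differed widely in level, from 23.5 TPM for the pyruvate dehydrogenase kinases to 2042 TPM for GAPDH in siCTRL. The hexokinase step was the lowest of the enzymatic steps from glucose to lactate, at 39.6, 36.6 and 34.2 TPM in siMatrin3 and 28.4, 31.2 and 28.5 TPM in siCTRL, and was 25.2% higher. The mutase step was 57.8% lower, at 137, 112 and 80.1 TPM in siMatrin3 and 261, 259 and 261 TPM in siCTRL. In siMatrin3 PGAM1 was below the summed phosphofructokinases, which were at 162, 151 and 163 TPM in siMatrin3 and 175, 177 and 185 TPM in siCTRL. In siCTRL the mutase was above them in every library.

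These sums depend on the scale. Over 13319 genes with at least 1 TPM in both groups, the median log2 ratio was -0.10 in TPM and 0.005 in CPM, so that a gene of median behaviour reads slightly lower in siMatrin3 when TPM is used. The phosphofructokinase step was 11.3% lower in TPM without overlap (exact permutation p = 0.1) and 0.402% lower in CPM with overlap. Pyruvate kinase was 5.50% lower in TPM without overlap and 2.66% higher in CPM with overlap. In CPM 7 further steps had all siMatrin3 libraries above all siCTRL libraries, namely triosephosphate isomerase, GAPDH, enolase, lactate dehydrogenase, lactate transport and both arms of the pentose phosphate pathway, and each of them overlapped in TPM. The hexokinase rise and the mutase fall kept their direction and their separation on both scales, at 45.7% and -54.8% in CPM.

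**Figure D4:**
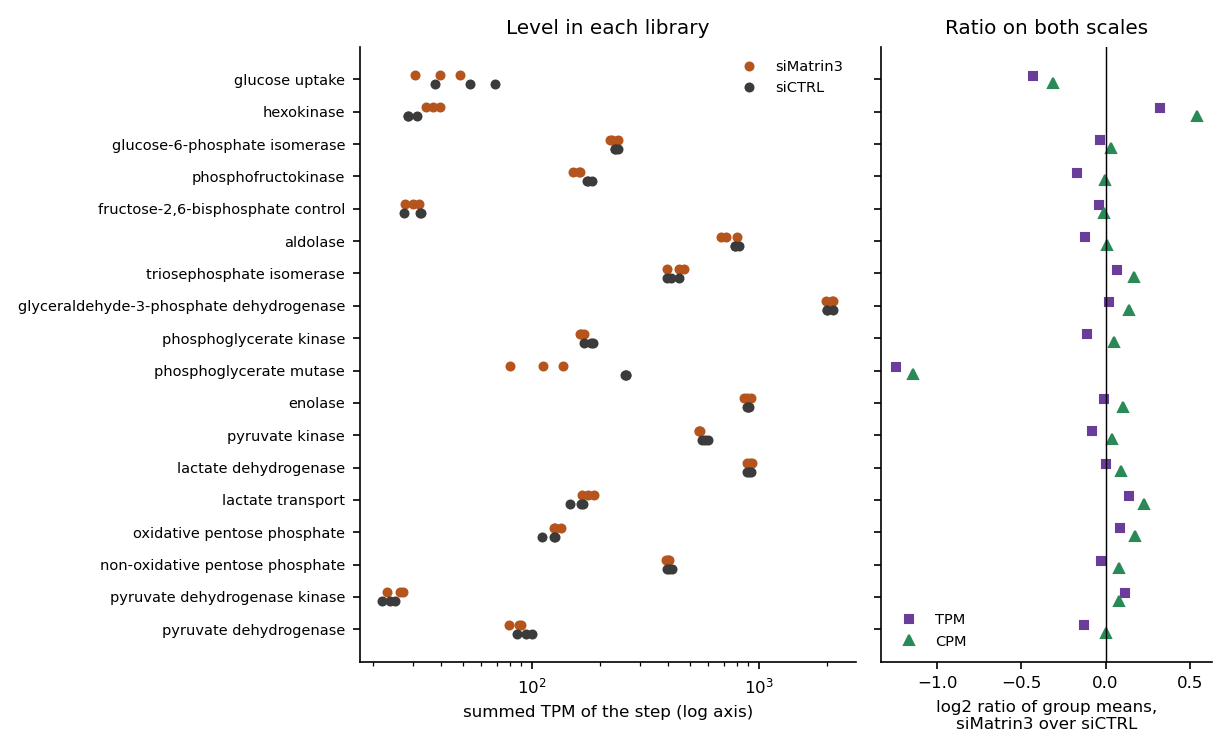
Left, summed TPM of each pathway step (x axis, log scale) in the 3 siMatrin3 and 3 siCTRL libraries, and right, the log2 ratio of group means (siMatrin3 over siCTRL) from TPM and from CPM. Phosphoglycerate mutase (-1.24 in TPM, -1.15 in CPM) lies lowest and hexokinase (0.32 and 0.54) highest on both scales, glucose uptake (-0.43 and -0.31) overlaps between the groups, and most other steps lie within 0.2 of 0.

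Other genes around these pathways came from lists of related isozymes, pyruvate entry, the ribose side of the pentose phosphate pathway, gluconeogenesis and glycogen, branch enzymes, regulators and hypoxia targets. Of 92 such genes 73 were tested, 10 were higher (13.7%) and 3 lower (4.11%), by the same test. Among all genes tested 5.68% were higher and 5.18% lower, and at or above 106 CPM 16.9% and 6.50%. The related genes were not matched to these by level, and the same shares stand beside each list that follows. The replicate block gave 12 higher (16.4%) and 3 lower (4.11%), beside 8.39% and 7.37% of all genes. It added BSG, the chaperone of the lactate transporters (log2 fold change 0.17, edgeR adjusted p = 0.0625 without the block and 0.0234 with it), and PCK2, the mitochondrial form of the first gluconeogenic enzyme (0.41, 0.0592 and 0.0274). Among other isozymes and transporters, 1 of 15 tested was higher and 1 lower. SLC2A6, a glucose transporter of internal membranes, was at 13.0, 12.7 and 14.7 CPM in siMatrin3 and 7.34, 9.17 and 9.16 CPM in siCTRL (log2 fold change 0.64 ± 0.16, edgeR adjusted p = 0.0205). SLC16A7 (MCT2), a high-affinity pyruvate and lactate importer, was at 14.7, 25.4 and 16.4 CPM in siMatrin3 and 31.5, 32.9 and 24.5 CPM in siCTRL. SLC16A7 groups overlapped, although it passed (log2 fold change -0.68 ± 0.18, edgeR adjusted p = 0.025).

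In pyruvate entry, DLD, the E3 subunit of pyruvate dehydrogenase, was the only one of 10 tested genes to pass, at 111, 111 and 108 CPM in siMatrin3 against 92.4, 93.0 and 87.9 CPM in siCTRL (log2 fold change 0.27). SHPK, the sedoheptulose kinase that feeds the non-oxidative pentose arm, was the only one of 6 on the ribose side, at 54.9, 44.2 and 57.2 CPM in siMatrin3 and 37.8, 35.1 and 35.6 CPM in siCTRL (log2 fold change 0.54, edgeR adjusted p = 0.00405). Both lay above siCTRL in every siMatrin3 library. In gluconeogenesis and glycogen metabolism 2 of 10 tested were higher, namely PGM1, which links glucose-1-phosphate and glucose-6-phosphate (log2 fold change 0.48), and the glycogen phosphorylase PYGB (0.25).

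Among branch enzymes that draw on glycolytic sugars, 1 of 8 tested was higher and 1 lower. GFPT1, the entry enzyme of hexosamine synthesis, was at 122, 129 and 121 CPM in siMatrin3, against 94.7, 92.6 and 83.0 CPM in siCTRL (log2 fold change 0.46 ± 0.07, edgeR adjusted p = 0.000923). AKR1B1, the aldose reductase of the polyol pathway, was at 24.1, 26.6 and 26.7 CPM in siMatrin3 and 40.4, 44.1 and 33.1 CPM in siCTRL (log2 fold change -0.62 ± 0.11, adjusted p = 0.00358). The groups overlapped for neither gene.

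Of the regulators of these pathways 3 of 13 tested were higher. MYC, a transcription factor that drives many glycolytic genes, was at 465, 405 and 429 CPM in siMatrin3, against 304, 311 and 296 CPM in siCTRL (log2 fold change 0.51, edgeR adjusted p = 0.000145). HIF1A, the oxygen-regulated factor whose activity is set mainly through its protein, was at 251, 255 and 261 CPM in siMatrin3 and 227, 213 and 214 CPM in siCTRL (log2 fold change 0.23, adjusted p = 0.0119). MLXIPL, a glucose-responsive factor, was at 30.04, 30.99 and 24.95 CPM in siMatrin3 and 20.9, 22.8 and 19.4 CPM in siCTRL (log2 fold change 0.43, adjusted p = 0.0264). For all 3 the groups did not overlap. Whether any of them acted on the members was not tested.

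Across the alternative processings the direction of each called member was kept, and what changed was how many passed. PGAM1 was called in 17 of 17, HK2 and PFKP in 16, RPE in 15, PFKL in 14, PFKM in 11 and SLC16A3 in 10. With effective lengths as an offset HK2 and PGAM1 were the only members to pass, and with limma on TPM PFKP and PGAM1 were.

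**Figure D5:**
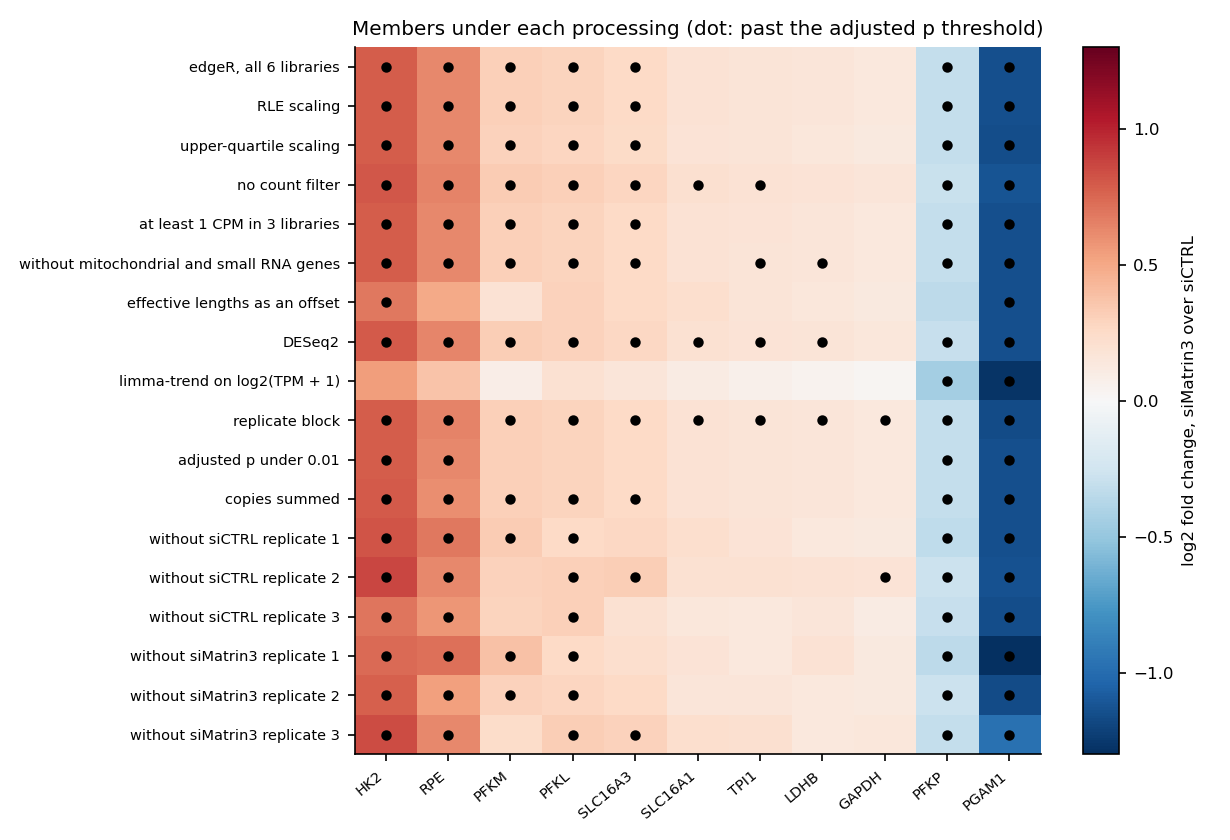
Log2 fold change of siMatrin3 over siCTRL (colour) for 11 members (columns) under edgeR with all 6 libraries and under 17 alternatives (rows), with a dot where the adjusted p threshold was passed. PGAM1 carries a dot in every row, and SLC16A1, TPI1, LDHB and GAPDH in a few.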

How the data were processed

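RNA was profiled in 3 siMatrin3 and 3 siCTRL cultures of HCT116. According to its methods section, total RNA from TRIzol was depleted of ribosomal RNA and read single-end over 50 cycles from a directional kit, whereas the labels name a stranded mRNA kit. Per the submitters' processing notes the reads went through cutadapt, TopHat and RSEM on hg19. Neither the annotation release nor the strand setting was found in the sources used. The authors' RSEM tables give expected counts per gene (not normalized between libraries), TPM (scaled within each library) and an effective length in bases. The deposited FPKM column was not used.

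Gene IDs were matched to GENCODE 44 on hg38 (58472 of 58884, 99.3%), which also gave positions, overlaps and copies. Expected counts were rounded, filtered by filterByExpr (minimum count 10, minimum total 15) and TMM-scaled. The groups were then compared by the quasi-likelihood test of edgeR 4.0.16 (R 4.3.3), two-sided, with Benjamini-Hochberg adjustment over all 14334 genes at 0.05. CPM are counts per TMM-scaled library total. Isozyme shares, step sums and effective lengths were compared by exact permutation over libraries, which cannot go below p = 0.1. Libraries of a group differed by more than sampling noise (chi-square over its degrees of freedom 2.67 to 4.39), and p-values reflect the spread among cultures of 1 line. The fit was tested on simulated data.

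Same-numbered libraries of the groups deviated together, though weakly (correlations 0.107, 0.104 and 0.157). All other pairs were below 0, which adds no further evidence, because deviations from a group mean must balance. Neither the labels nor the methods section states a pairing. It was inferred from the same counts that were then tested, and the main fit has no block for the replicate number. A fit with that block is given where it changes a call. Alternatives were RLE and upper-quartile scaling, no filter or a stricter one, removal of mitochondrial and small RNA genes, effective lengths as an offset, DESeq2 1.42.0, limma 3.58.1 on log2(TPM + 1), an adjusted p of 0.01, counts of pseudogene copies added, and leaving out each library. The members, the related lists and the tests were chosen with earlier results of these data known. Values are given for called members, for isozymes of their steps, for GAPDH and for members called under at least 3 alternatives, and for the called genes of the related lists. One of the related lists is not reported here. Genes that overlap or share sequence with a member were named after their values were seen. RefSeq promoter windows are on GRCh38.p14.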

Additional observations from a re-analysis of the deposited data

How the results depend on the processing

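Of 561 pairs of a tested member and an alternative, 525 kept their call, 20 lost one and 16 gained one. No called value changed sign, and 37 uncalled ones did. The 5 higher and 2 lower members became 1 and 1 with effective lengths as an offset, 9 higher with DESeq2, 11 higher with the replicate block, 2 higher at an adjusted p under 0.01 and 0 higher with limma on log2(TPM + 1), where 2 members were higher at an unadjusted p under 0.05. By edgeR 13 members were. Leaving out 1 library gave 3 to 5 higher members and 2 lower in every case, with 3 without siCTRL replicate 3. Over all genes, 814 higher and 743 lower became 99 and 105 with the offset, 31 and 118 with limma, 294 and 295 at 0.01, and 350 to 631 and 357 to 625 with 1 library left out. The block changed no call of a member other than the 6 named gains.

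With CPM in place of TPM the log2 ratios of several steps moved by more than the spread between libraries. Those that turned from negative to positive were pyruvate kinase (-0.0816 to 0.0379), glucose-6-phosphate isomerase (-0.0313 to 0.0296), aldolase (-0.123 to 0.0105) and PGK1 (-0.112 to 0.0487). Enolase (-0.0067 to 0.11), the non-oxidative pentose steps (-0.0257 to 0.0781) and pyruvate dehydrogenase (-0.131 to 0.0003) turned too. The others became 0.54 for hexokinase, -0.0058 for phosphofructokinase, 0.14 for GAPDH, 0.0888 for lactate dehydrogenase and 0.175 for the oxidative pentose steps. From expected counts in place of TPM, the share differences were -3.94 points for PFKFB2, 4.88 for PFKFB4, 1.26 for SLC16A3 and 4.01 for PDK2, and with pseudogene copies added that of SLC2A1 was 3.15. Glucose uptake (-0.31), triosephosphate isomerase (0.17), lactate transport (0.23) and the LDHA share (-2.50 points) moved by less than that spread, although the last 3 came to separate the groups. The cause of these moves was not tested. At 3 libraries a group, 3 against 3 permutations cannot pass 0.05, and SLC2A3 was too shallow for the filter used.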

Other observations

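A further list held genes that hypoxia-inducible factor activates outside glycolysis. Of 12 listed, 11 were tested, and 1 was higher and 1 lower (9.09% each). Among all genes tested 5.68% were higher and 5.18% lower. DDIT4, a stress-induced inhibitor of mTORC1, was at 81.8, 85.0 and 47.7 CPM in siMatrin3 and 31.1, 48.4 and 27.7 CPM in siCTRL. It passed (log2 fold change 0.95 ± 0.21, adjusted p = 0.0117 by edgeR) although siMatrin3 replicate 3 lay within the range of siCTRL. ERO1A, an oxidase of disulphide formation in the endoplasmic reticulum, was at 98.2, 82.2 and 72.2 CPM in siMatrin3, against 109, 112 and 113 CPM in siCTRL, without overlap (log2 fold change -0.40 ± 0.09, adjusted p = 0.014 by edgeR).

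Among the members themselves the share of named pseudogenes was largest for SLC2A3. Its 3 held 81.1% of the counts of gene and named pseudogenes together in siMatrin3 and 80.3% in siCTRL. GAPDH has 65 named pseudogenes, of which 30 had counts. They held 0.746% of such a total in siMatrin3 and 0.841% in siCTRL. For LDHA the pseudogenes held 2.14% in siMatrin3 and 2.04% in siCTRL.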
